A study of Mus musculus with 12 samples.

Results

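Amino acid and one-carbon catabolism in the mouse kidney was described through 52 genes, chosen by name as enzymes that break down, interconvert or methylate amino acids. They fall into 8 arms: branched-chain amino acids and propionate (15 genes), glycine, serine and one-carbon units (7), lysine, tryptophan and kynurenine (7), ornithine and proline (6), methionine and transsulfuration (6), arginine, creatine and urea cycle (5), aminotransferases (3) and tyrosine (3). All 52 were found among the 46882 gene names of the count table, and all 52 had enough counts to be tested. Mice of the C57BL/6 strain gave whole kidneys for RNA sequencing at an age of 6 to 8 weeks. The wild-type group (WT) held animals 573, 590, 601, 776, 777 and 778. The knockout group, with the genotype A1cf -/- (A1cf KO), held animals 574, 584, 588, 591, 602 and 780, so that n = 6 in each group. The labels name no treatment, and how the A1cf allele was made is not given in the sources used here. A1cf encodes an RNA-binding protein known as a cofactor of the RNA-editing enzyme APOBEC1. The comparison asks how far the RNA levels of these enzymes differ between kidneys with and without A1cf.

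The kidney takes up filtered amino acids in the proximal tubule and is a main site of their metabolism outside the liver. It makes arginine from citrulline, starts the synthesis of creatine, and forms glycine and serine. It also oxidises proline, hydroxyproline and the branched-chain amino acids valine, leucine and isoleucine in its mitochondria. Methionine, through S-adenosylmethionine, supplies the methyl groups for creatine and other products, and folate enzymes pass one-carbon units between serine, glycine and methionine.

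The deposited values are counts of reads per gene, with totals between 26671705 and 52899139 per library. Levels are given below as CPM, the counts brought to a common library size. A1cf, the targeted gene, averaged 54.5 ± 7.39 CPM in the WT and 4.11 ± 1.07 CPM in the A1cf KO libraries (SD, n = 6 each), which matches the genotype labels. Markers of the proximal tubule were abundant in all libraries, with a sum of 12 genes between 11840 and 17960 CPM. A sum of 5 hepatocyte markers stayed between 18.2 and 65 CPM. In the list of 7 loop of Henle markers, all 7 were lower in A1cf KO with an unadjusted p under 0.05, and their sum ran from 4782 to 7058 CPM in WT and from 3596 to 4598 CPM in A1cf KO. The values of 4 distal convoluted tubule, 5 principal cell and 6 intercalated cell markers were also all below 0 on the log2 scale of A1cf KO over WT, with 2, 1 and 3 at an unadjusted p under 0.05. Those of 5 male-biased kidney genes were all above 0 (median 0.42, 3 at an unadjusted p under 0.05). Within the animals numbered 573 to 602, 4 of these were above 0 and 1 below, with a median of 0.22. Values of 5 stroma markers (median 0.41, 2 at an unadjusted p under 0.05) and 4 adipocyte markers (median 0.80, 0 at that level) were also all above 0. Lists of proximal tubule, S3 segment, endothelium, podocyte, macrophage, hepatocyte and tubular injury markers held both directions. Mitochondrial genes took 9.13% to 11.8% of counts in WT and 11.1% to 12.7% in A1cf KO. These are bulk samples, in which fewer cells of a type and less RNA per cell cannot be told apart. The part of cell composition in the values below was not tested.

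No member passed the threshold of 0.05 in the edgeR quasi-likelihood test after Benjamini-Hochberg adjustment over 16910 genes, against a background of 0.0473% of all genes tested. Their log2 fold changes of A1cf KO over WT lay between -0.68 for Kynu and 0.49 for Acmsd. The median log2 fold change over the 52 members was 0.018, and 30 of them were higher in A1cf KO. Over all genes tested the median was -0.003, and 49.2% were higher. Within the animals numbered 573 to 602, 16 of the 52 members were higher and 36 lower, and with the animal number series as a covariate 21 were higher, so the balance of directions turned. By arm, the medians ran from -0.058 for ornithine and proline to 0.13 for branched-chain amino acids and propionate. An unadjusted p under 0.05 was found for 11 of the 52 members (21.2%), against 10.4% of all genes. Of these 11 members, 6 were higher in A1cf KO (5.07% of all genes) and 5 were lower (5.28%). That count was 7 without A1cf KO 574, without WT 776 or without WT 778. Among the members, an exact two-sided permutation test of CPM was run for these 11 alone. Its p lay between 0.0022 for Oat and Bcat2 and 0.091 for Hpd. For Shmt1 (0.061) and Kynu (0.056) the permutation p was also above 0.05. The 11 members were picked by their edgeR p in the same libraries, so the permutation p is no separate support for a difference. The DESeq2 Wald test called 4 members, Dbt and Gpt2 as higher and Oat and Bcat2 as lower, against a background of 1.01% of genes (0.523% higher and 0.486% lower). By limma-voom 0 members were called (0.0473% of all genes), with 10 at an unadjusted p under 0.05 (10.4%). Within the animals numbered 573 to 602, edgeR called 0 members (0.0402% of all genes), and 8 had an unadjusted p under 0.05 (7.5%).

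**Figure D1:**
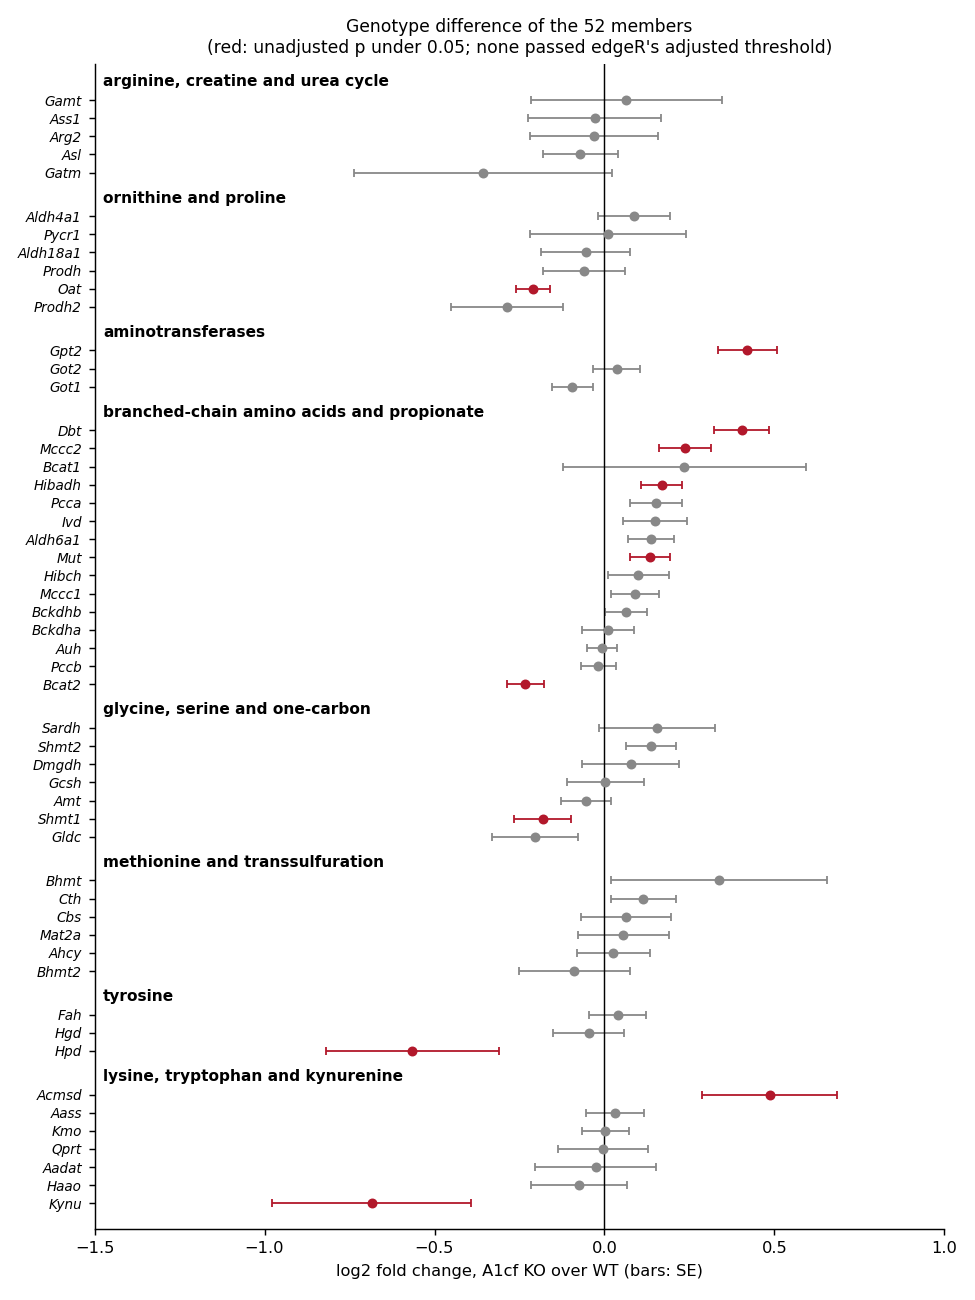
Log2 fold change of A1cf KO over WT for each of the 52 members (horizontal axis, bars are the standard error of the edgeR fit), grouped by pathway arm, with members at an unadjusted p under 0.05 in red. The 11 red points lie on both sides of 0, and 12 of the 15 enzymes of branched-chain amino acids and propionate lie to the right of it.

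The 15 enzymes of branched-chain amino acid and propionate breakdown formed the largest arm, and 12 of them were higher in A1cf KO, with a median log2 fold change of 0.13. An unadjusted p under 0.05 was found for 5 of them, higher in 4 cases and lower in 1. Within the animals numbered 573 to 602, 10 of the 15 were higher and the median was 0.046.

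Bcat2, the mitochondrial transaminase that takes the amino group off branched-chain amino acids, was the enzyme that was lower. It lies on chromosome 7 (plus strand of mm10, 45570153 to 45589710). Its lowest, median and highest levels were 77.6, 82.1 and 92.1 CPM in WT and 64.2, 70.9 and 74.9 CPM in A1cf KO. Every A1cf KO library lay below every WT library, which held in the same direction for 0.52% of all genes. Bcat2 had a log2 fold change of -0.23 (SE 0.055), with an adjusted p of 0.17 by edgeR and 0.015 by DESeq2. The exact two-sided permutation p of 0.0022 is the smallest that 6 against 6 libraries can give, and it follows from the lack of overlap. Exons of the gene 0610005C13Rik on the opposite strand cover 622 bases (16%) of the counted Bcat2 sequence, and counting without strand cannot assign the reads there. That partner was at 117.8 ± 15.3 CPM in the WT and 114.2 ± 12.1 CPM in the A1cf KO libraries (SD, n = 6 each).

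Dbt, the core subunit of the branched-chain keto acid dehydrogenase that carries out the irreversible step after transamination, was higher in A1cf KO. Its levels were 77.2, 96.5 and 108 CPM (lowest, median, highest) in WT and 106, 128 and 135 CPM in A1cf KO. In 5 of 6 A1cf KO libraries Dbt lay above all WT libraries, and the lowest A1cf KO library, 584, lay within the WT range. On the log2 scale the difference was 0.40 (SE 0.081, adjusted p = 0.13 by edgeR and 0.0031 by DESeq2), and the exact two-sided permutation p was 0.0043. For the other subunits of the same complex the differences were smaller in size. Bckdhb had a log2 fold change of 0.063 (SE 0.063) and Bckdha one of 0.01 (SE 0.075), although B3gnt8 on the opposite strand covers 61.7% of the counted Bckdha sequence.

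Further down these routes, Mccc2, a subunit of the leucine-specific carboxylase, had levels of 77.3, 96 and 108 CPM (lowest, median, highest) in WT and 98.9, 111 and 119 CPM in A1cf KO. Its range overlapped between genotypes in 1 A1cf KO library. This gave a log2 fold change of 0.24 (SE 0.076, edgeR adjusted p = 0.32). Hibadh, a dehydrogenase of valine breakdown, had levels of 526, 587 and 625 CPM in WT and 603, 669 and 685 CPM in A1cf KO, with a log2 fold change of 0.17 (SE 0.061). Mut, the cobalamin-dependent mutase that ends propionate breakdown, had levels of 199, 222 and 243 CPM in WT and 223, 239 and 264 CPM in A1cf KO, with a log2 fold change of 0.13 (SE 0.06). Both of these genes overlapped more between genotypes, with 4 and 2 A1cf KO libraries above the WT range. Within animals 573 to 602 the log2 fold changes were smaller, at 0.12 for Mccc2, 0.11 for Hibadh and 0.065 for Mut.

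The 2 members of this arm that stood highest per length overlapped between genotypes. Aldh6a1, the semialdehyde dehydrogenase of valine breakdown, was at 849 ± 60.5 CPM in the WT and 933 ± 74 CPM in the A1cf KO libraries (SD, n = 6 each). Pccb, a subunit of propionyl-CoA carboxylase, was at 307 ± 16.5 and 303 ± 9.97 CPM. The log2 fold changes of the remaining 8 enzymes of this arm, Bckdha and Bckdhb included, lay between -0.008 for Auh, a hydratase of leucine breakdown, and 0.24 for Bcat1, the cytosolic transaminase, and none had an unadjusted p under 0.05. Bcat1 was also the most scattered of them, from 19.7 to 66.4 CPM in WT and from 20.1 to 98.4 CPM in A1cf KO.

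**Figure D2:**
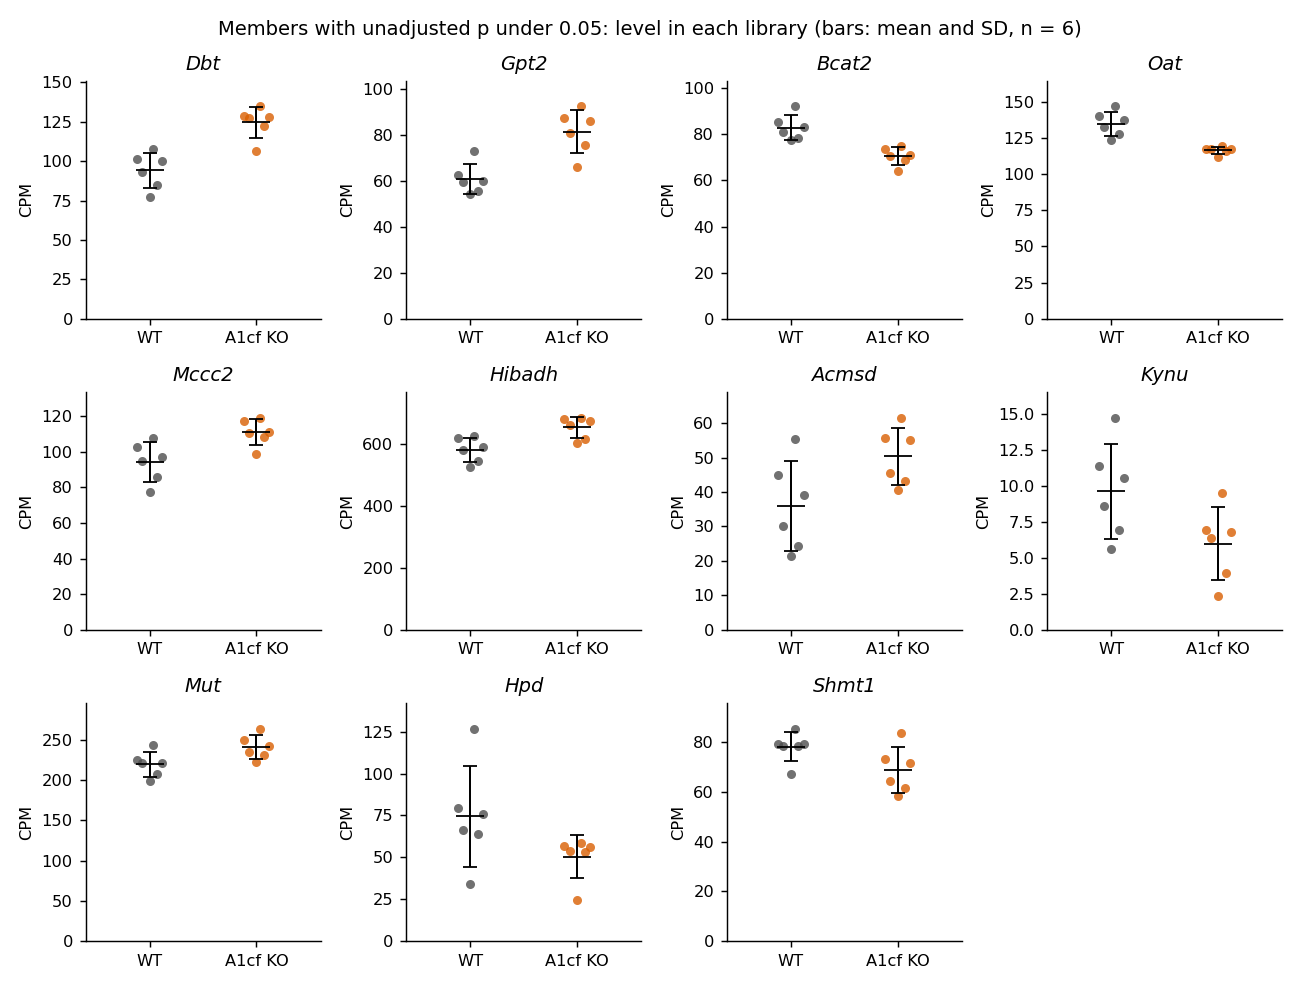
Level in CPM (vertical axes, from 0) of the 11 members with an unadjusted p under 0.05 in each WT and A1cf KO library, with 1 point per library and bars for the mean and SD of 6 libraries. Oat and Bcat2 are the members whose genotypes do not overlap, and Dbt, Gpt2 and Mccc2 each have 5 of 6 A1cf KO points above all WT points.

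Oat, which converts ornithine to the precursor of proline and glutamate, was the other member with no overlap between genotypes (0.84% of all genes had none in either direction). The gene is on the minus strand of chromosome 7, between 132557475 and 132576398. Its lowest, median and highest levels were 123, 135 and 147 CPM in WT and 112, 117 and 119 CPM in A1cf KO. All 6 A1cf KO libraries fell in a narrow band below the WT range. Its log2 fold change was -0.21 (SE 0.05, adjusted p = 0.17 by edgeR and 0.0093 by DESeq2), and the exact two-sided permutation p was 0.0022. Within animals 573 to 602 the difference was smaller, with a log2 fold change of -0.12. For the other 5 enzymes of ornithine and proline the genotypes overlapped. Prodh, the first enzyme of proline oxidation, was at 272 ± 41.6 CPM in the WT and 261 ± 43.7 CPM in the A1cf KO libraries (SD, n = 6 each), and Prodh2, which oxidises hydroxyproline, had a log2 fold change of -0.29 (SE 0.16).

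Gpt2, the mitochondrial alanine aminotransferase, was higher in A1cf KO. The gene is on the plus strand of chromosome 8, between 85492576 and 85527560. Its levels were 54.3, 59.6 and 72.7 CPM (lowest, median, highest) in WT and 66.1, 83.1 and 92.2 CPM in A1cf KO. WT 590 was high among the WT libraries and A1cf KO 780 low among the A1cf KO libraries, and those libraries make the overlap. The log2 fold change was 0.42 (SE 0.086, adjusted p = 0.14 by edgeR and 0.0035 by DESeq2), with an exact two-sided permutation p of 0.0043. Without WT 590, edgeR called Gpt2 alone among the members, at an adjusted p of 0.046 and against a background of 0.0704%. The aspartate aminotransferases overlapped between genotypes. Mitochondrial Got2 was at 221 ± 23 CPM in the WT and 226 ± 11.7 CPM in the A1cf KO libraries, and cytosolic Got1 at 92.5 ± 5.6 and 86.7 ± 7.09 CPM (SD, n = 6 each).

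In the arm of lysine, tryptophan and kynurenine, 2 of 7 members had an unadjusted p under 0.05, with 1 higher and 1 lower in A1cf KO. Acmsd, the decarboxylase that draws tryptophan carbon away from NAD synthesis, had levels of 21.5, 34.7 and 55.3 CPM (lowest, median, highest) in WT and 40.7, 50.4 and 61.6 CPM in A1cf KO. Of its A1cf KO libraries, 2 lay above the WT range and 4 within it. The log2 fold change was 0.49 (SE 0.2, edgeR adjusted p = 0.42), and within animals 573 to 602 it was 0.15. Kynu, which cleaves kynurenine and hydroxykynurenine, had levels of 5.61, 9.59 and 14.8 CPM in WT and 2.35, 6.61 and 9.53 CPM in A1cf KO. Its log2 fold change was -0.68 (SE 0.29, edgeR adjusted p = 0.44), and 4 of 6 A1cf KO libraries lay within the WT range.

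The 2 members of this arm with the highest level per length overlapped between genotypes. Haao, which forms the substrate of Acmsd, was at 194 ± 37.1 CPM in the WT and 184 ± 32.7 CPM in the A1cf KO libraries, and Aadat, an aminoadipate and kynurenine aminotransferase, at 275 ± 70.8 and 270 ± 62.9 CPM (SD, n = 6 each). Kmo, Qprt and Aass, which hydroxylate kynurenine, form the nicotinic acid ribonucleotide and start lysine breakdown, had log2 fold changes between -0.005 and 0.03.

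In tyrosine breakdown, Hpd, the hydroxyphenylpyruvate dioxygenase, had levels of 34.3, 71.2 and 127 CPM (lowest, median, highest) in WT and 24.3, 54.9 and 58.4 CPM in A1cf KO. The A1cf KO libraries other than 584 were close together within the WT range. Its log2 fold change was -0.57 (SE 0.25, edgeR adjusted p = 0.46), and within animals 573 to 602 it was -0.87. Without WT 590, the highest WT library at 127 CPM, the log2 fold change over the other animals of both series was -0.35. Next in the route come Hgd, which opens the aromatic ring, and Fah, which makes the final cut. Their levels were 513 ± 75.1 CPM in the WT and 497 ± 60.4 CPM in the A1cf KO libraries for Hgd, and 499 ± 64.1 and 513 ± 34 CPM for Fah (SD, n = 6 each).

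In the arm of glycine, serine and one-carbon units, Shmt1, the cytosolic serine hydroxymethyltransferase, had levels of 67.3, 79 and 85.4 CPM (lowest, median, highest) in WT and 58.4, 68.2 and 83.7 CPM in A1cf KO. Its log2 fold change was -0.18 (SE 0.083, edgeR adjusted p = 0.47), with 3 A1cf KO libraries below the WT range. The mitochondrial form Shmt2 was at 220 ± 24 CPM in the WT and 241 ± 15.2 CPM in the A1cf KO libraries, and Sardh, which turns sarcosine into glycine, at 431 ± 111 and 480 ± 101 CPM (SD, n = 6 each). Of the glycine cleavage system, Gldc had a log2 fold change of -0.21 (SE 0.13), Amt one of -0.055 and Gcsh one of 0.002.

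The 6 enzymes of methionine and transsulfuration and the 5 of arginine, creatine and the urea cycle had no member with an unadjusted p under 0.05. Mat2a, which makes S-adenosylmethionine, was at 512 ± 115 CPM in the WT and 532 ± 77.7 CPM in the A1cf KO libraries, and Ahcy, which clears S-adenosylhomocysteine, at 283 ± 36.4 and 288 ± 41.1 CPM (SD, n = 6 each). Cbs and Cth, which pass homocysteine sulfur to cysteine, had log2 fold changes of 0.063 (SE 0.13) and 0.11 (SE 0.095). Ass1, which joins citrulline and aspartate on the way to arginine, was at 1450 ± 472 CPM in the WT and 1421 ± 346 CPM in the A1cf KO libraries (SD, n = 6 each). Asl, the next enzyme, had a log2 fold change of -0.071 and the mitochondrial arginase Arg2 one of -0.031, with Vti1b on the opposite strand over 20% of the counted Arg2 sequence.

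Levels between genes were compared as CPM per kilobase of counted exon. Ass1 was the highest of the 52, at 601 ± 195 per kilobase in WT, and was followed by Aldh6a1 at 254 ± 18.1, Fah at 238 ± 30.5 and Hgd at 196 ± 28.7 (SD, n = 6). At the other end, Pycr1 and Aldh18a1, the enzymes that build proline from glutamate, stood at 0.176 ± 0.035 and 0.528 ± 0.071 per kilobase. Enzymes that break proline down were far above them, and the ratio of Prodh to Pycr1 per kilobase lay between 220 and 626 in the 12 libraries. Pycr1 rests on 15 to 39 counts per library.

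Of the homologous pairs compared, Bhmt2 and Bhmt gave the widest gap. Both are on the minus strand of chromosome 13, at 93655720 to 93674302 and at 93616891 to 93637961. Bhmt2, a methyltransferase that uses S-methylmethionine to methylate homocysteine, exceeded its homologue Bhmt, which uses betaine, by 66.5 to 236 times per kilobase in WT and by 46.8 to 186 times in A1cf KO. How reads that fit both genes were counted is not given in the sources used here. Bhmt was at 2.95 ± 1.6 CPM in the WT and 3.75 ± 1.39 CPM in the A1cf KO libraries, and Bhmt2 at 154 ± 34.8 and 145 ± 29.4 CPM (SD, n = 6 each). In each of the 12 libraries the mitochondrial form exceeded the cytosolic form per kilobase for Bcat2 over Bcat1, Shmt2 over Shmt1 and Got2 over Got1. Those ratios per kilobase ran from 1.82 to 11.2, from 3.91 to 6.63 and from 2.10 to 2.73 over all libraries. Without division by length, Bcat1 stood above Bcat2 in A1cf KO 602, at 98.4 against 74.9 CPM.

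**Figure D3:**
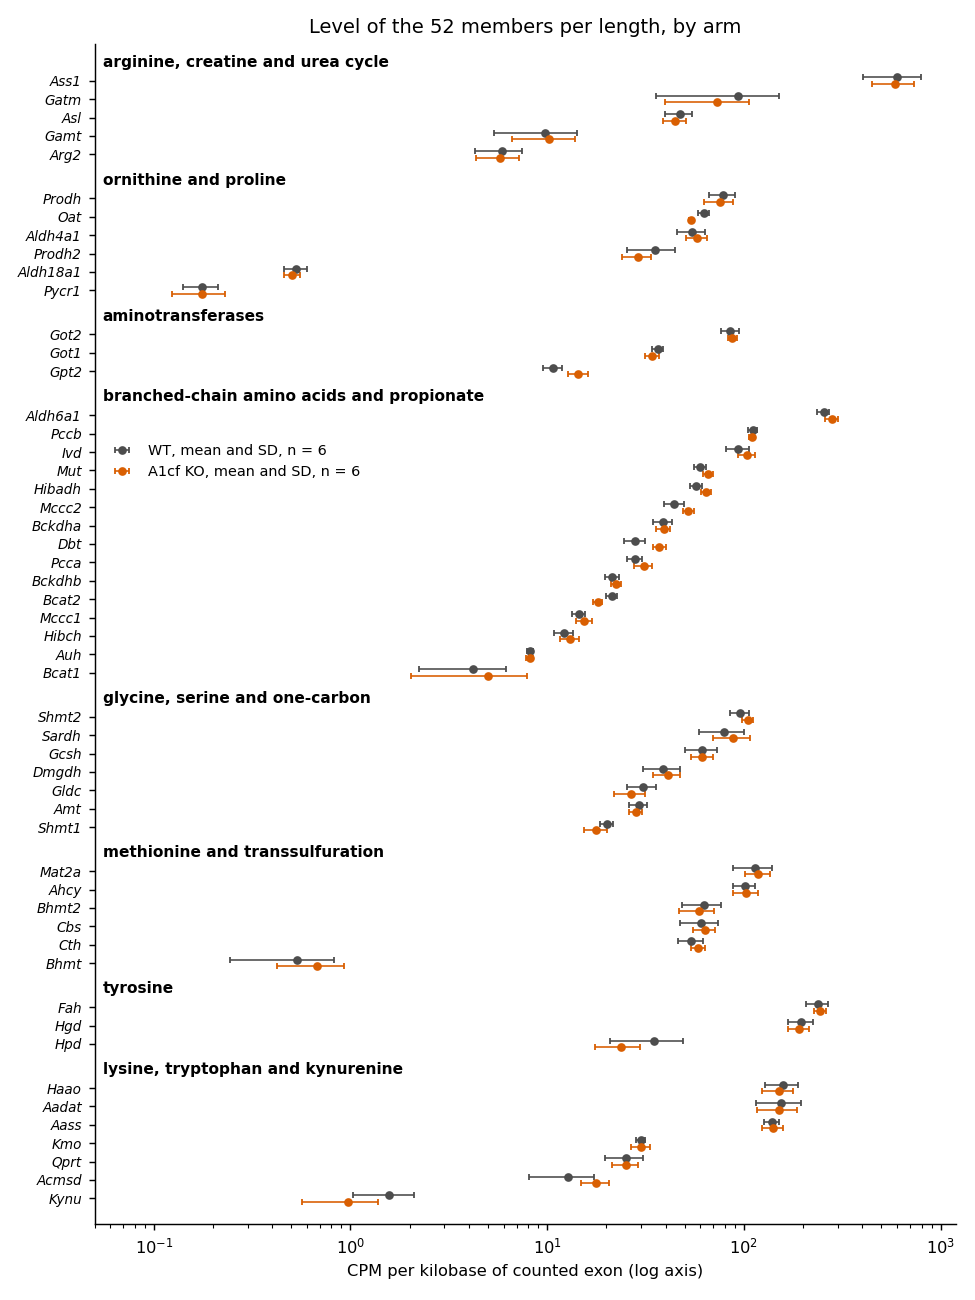
Level of each member as CPM per kilobase of counted exon (log axis), with means and SD of 6 WT libraries in grey and 6 A1cf KO libraries in orange, grouped by arm. The members span from 0.176 for Pycr1 to 601 for Ass1 in WT, whereas the log2 fold changes between genotypes lie between -0.68 and 0.49.

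The members also varied between animals of one genotype. The coefficient of variation over the 6 WT libraries ran from 3.68% for Auh to 61.8% for Gatm, with a median of 14.1% over the members and 14% over all genes tested. WT 590 was the highest WT library for 21 of the 52 members (19.6% of all genes), and A1cf KO 588 the highest A1cf KO library for 25 (13.6% of all genes). WT 776 was the lowest WT library for 24 members (18.4% of all genes), and A1cf KO 584 the lowest A1cf KO library for 29 (20.5% of all genes). Summed over the 52 members, WT 590 reached 13310 CPM and A1cf KO 588 reached 13000 CPM, against 9619 CPM for WT 776 and 9760 CPM for A1cf KO 584. The sum of 12 proximal tubule markers was 17870 and 17960 CPM in the former libraries and 12040 and 13140 CPM in the latter. The part of tubule content in these sums was not tested.

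**Figure D4:**
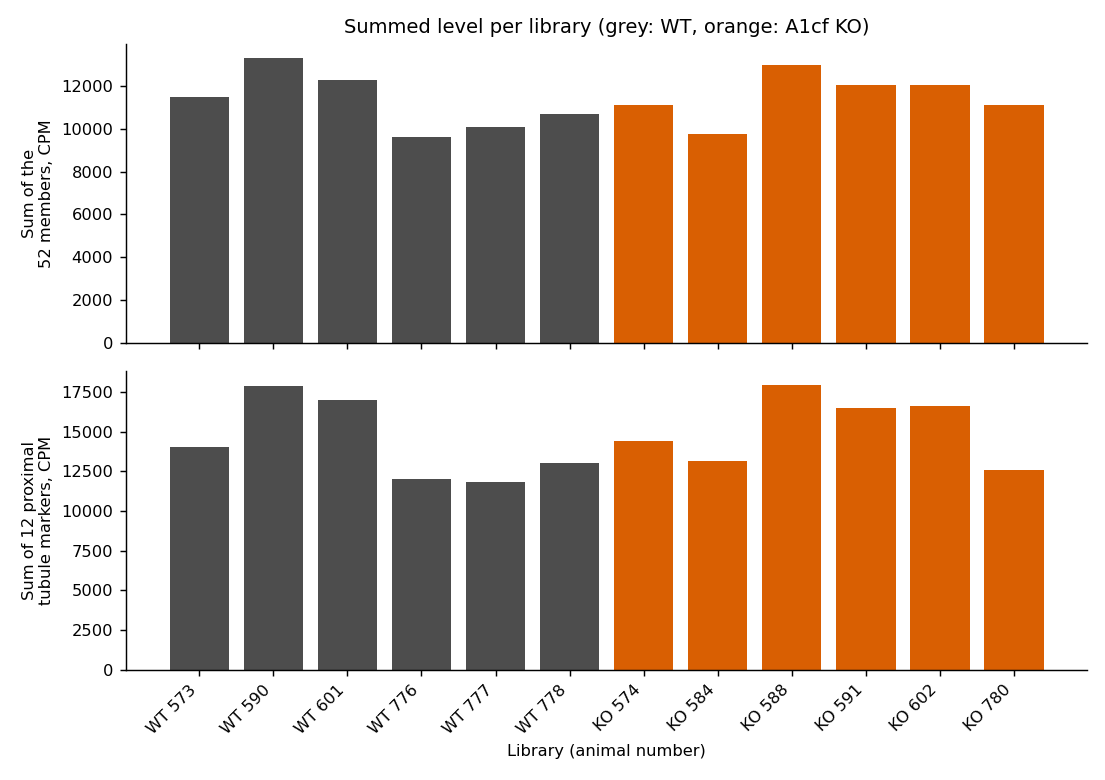
Summed level of the 52 members (upper bars) and of 12 proximal tubule markers (lower bars) in each library, in CPM from 0, with WT in grey and A1cf KO in orange. WT 590 and A1cf KO 588 are the highest of their genotype in both sums, and WT 776 and A1cf KO 584 are the lowest of their genotype in the upper one.

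The animal numbers fall into a lower series, 573 to 602 (3 WT and 5 A1cf KO), and a higher series, 776 to 780 (3 WT and 1 A1cf KO). The labels do not say what the series stand for, and with 1 A1cf KO animal in the higher series they are uneven between genotypes. In an edgeR fit with genotype as the other term, 47 of the 52 members were lower in 776 to 780, against 51.4% of all genes. The threshold was passed by 3 members, all lower in 776 to 780, against a background of 2.9% of all genes in either direction and 0.798% in that direction. An unadjusted p under 0.05 was found for 20 members, against 18.4% of all genes. The median log2 difference between the series was -0.16 over the members and -0.31 over the 12 proximal tubule markers, all 12 of which were lower in 776 to 780. Over 5 markers of the proximal tubule S3 segment the median was -0.065, with 2 higher there and 1 called. All endothelial, podocyte and adipocyte markers were higher there. Their median log2 differences were 0.70 over 5 (4 called), 0.36 over 5 (1 called) and 1.06 over 4 (0 called). Medians of the loop of Henle, distal convoluted tubule, principal cell, intercalated cell, stroma and macrophage lists ran from 0.0009 to 0.25. Each of those lists held markers in both directions. Over 4 hepatocyte markers the median was -0.12, with 2 higher and 2 lower. The part of cell composition in the series difference was not tested. Given the series as a covariate, the median genotype difference of the members was -0.016, with 12 at an unadjusted p under 0.05 (12.9% of all genes) and 0 called (0.142%).

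Gatm, which joins arginine and glycine in the first step of creatine synthesis, differed most between the series. Its levels in WT were 238, 481 and 509 CPM in animals 573, 590 and 601 and 189, 110 and 148 CPM in animals 776, 777 and 778. In A1cf KO they were 138, 152, 355, 230 and 317 CPM in animals 574, 584, 588, 591 and 602 and 117 CPM in animal 780. The WT series did not overlap, whereas the lowest A1cf KO libraries of the lower series reached the levels of the higher series. The log2 difference of 776 to 780 from 573 to 602 was -1.30 (SE 0.29, edgeR adjusted p = 0.028). Between genotypes the log2 fold change of Gatm was -0.36 (SE 0.38, edgeR adjusted p = 0.78). It was -0.66 (SE 0.26, edgeR adjusted p = 0.32) with the series as a covariate and -0.78 (SE 0.32, edgeR adjusted p = 0.64) within animals 573 to 602.

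Acmsd was at 45, 55.3 and 39.1 CPM in WT animals 573, 590 and 601 and at 30.2, 21.5 and 24.4 CPM in WT animals 776, 777 and 778. In A1cf KO it ran from 40.7 to 61.6 CPM in the lower series and was at 43.3 CPM in animal 780. The A1cf KO animal of the higher series thus lay inside the range of the lower series. Its log2 difference between the series was -0.64 (SE 0.15, edgeR adjusted p = 0.035). Among WT animals alone, Acmsd was the single member called, with a log2 difference of -0.88 (edgeR adjusted p = 0.038, background 0.704%), and Gatm had an adjusted p of 0.053.

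Bckdha, the catalytic subunit of the keto acid dehydrogenase, ran from 77.2 to 83.6 CPM in the WT animals of the lower series and from 61.7 to 70.3 CPM in those of the higher series. In A1cf KO it ran from 71.2 to 82.5 CPM and was at 64.8 CPM in animal 780. The log2 difference was -0.24 (SE 0.059, edgeR adjusted p = 0.045), with the overlap of B3gnt8 named above. Gamt, which methylates the product of Gatm to creatine, had a log2 difference of -0.85 (SE 0.25) that missed the threshold (edgeR adjusted p = 0.082). Ass1 and Sardh had log2 differences of -0.50 (SE 0.18) and -0.44 (SE 0.16), also short of it. Arg2 went the other way, with a log2 difference of 0.55 (edgeR adjusted p = 0.067).

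**Figure D5:**
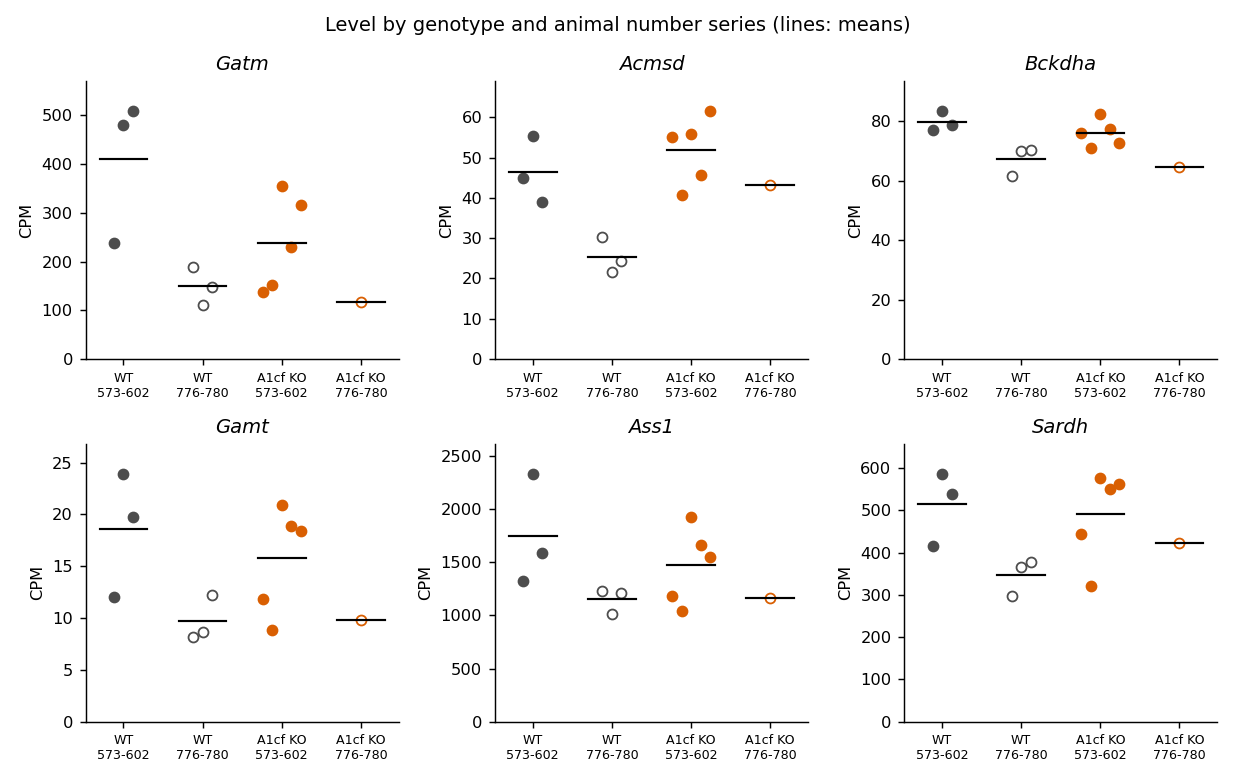
Level in CPM (vertical axes, from 0) of 6 members by genotype and animal number series, with filled points for 573 to 602, open points for 776 to 780 and lines for the means. All 3 WT points of the higher series lie below the 3 WT points of the lower series for Gatm, Acmsd, Bckdha, Ass1 and Sardh, and Gamt has 1 overlapping point.

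Promoters were compared to show what the members share in sequence. RefSeq start sites on GRCm38.p6, the mm10 assembly, were at hand for 46 of the 52 members, and the 250 bases before each start were searched on both strands for 10 short motifs. A gene with several starts counted if any of its windows held the motif. Aldh6a1 counted for AGGTCA through a window inside the gene, with no match before its outer start. The shares below do not allow for the number of starts per gene. AGGTCA, the half-site of many nuclear receptors (TGACCT on the other strand), was found in 16 of these 46 members (34.8%), against 15.8% of 27025 genes with such a window and 13.7% of the 11693 tested genes among them. GTTAAT, the half-site of HNF1 factors, was found in 4 members (8.70%, against 5.64% of the tested genes), and GGGCGG, the GC box, in 23 (50%, against 60.1%). The motif found in the most members was CCAAT, the CCAAT box, in 24 (52.2%, against 39.6%). TGATGCAA, the core of the amino acid response element, was found in 2 members (4.35%, against 0.641% of the tested genes). CAAAGTCCA, an HNF4A-type site, was found in 1 (2.17%, against 0.453%). TATAAA was found in 4 (8.70%, against 8.44%), and CACGTG, the E-box, in 4 (8.70%, against 9.35%). TGACTCA, the AP-1 site, was found in 1 (2.17%, against 4.33%), and TGACGTCA, the cyclic AMP response element, in 0 (against 2.89%). A match describes these letters in this window and is no evidence of binding. Printed below, 5′ to 3′ on the strand of the gene and without any base of a counted exon, are windows of Gatm (chr2:122611304-122611527, minus strand), Haao (chr17:83846791-83847040, minus strand) and Hgd (chr16:37579903-37580152, plus strand), which hold AGGTCA or TGACCT. Gatm is shown since it differed between the animal series, and Haao and Hgd as members that are among the 2 highest per kilobase in their arms and hold a match. Oat (chr7:132576399-132576648, minus strand) and Gpt2 (chr8:85492326-85492575, plus strand), among the members with the smallest p between genotypes, are shown since they hold none. Capitals mark the matches to AGGTCA or TGACCT.
Gatm: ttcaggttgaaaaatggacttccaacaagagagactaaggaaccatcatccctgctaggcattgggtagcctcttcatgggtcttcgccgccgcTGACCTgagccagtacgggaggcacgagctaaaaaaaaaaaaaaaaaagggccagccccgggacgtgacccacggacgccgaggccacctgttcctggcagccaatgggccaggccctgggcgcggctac
Haao: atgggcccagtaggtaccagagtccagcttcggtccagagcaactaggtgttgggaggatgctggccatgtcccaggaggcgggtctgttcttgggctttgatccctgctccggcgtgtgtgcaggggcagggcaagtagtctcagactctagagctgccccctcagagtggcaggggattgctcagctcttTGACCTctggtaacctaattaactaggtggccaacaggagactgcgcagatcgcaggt
Hgd: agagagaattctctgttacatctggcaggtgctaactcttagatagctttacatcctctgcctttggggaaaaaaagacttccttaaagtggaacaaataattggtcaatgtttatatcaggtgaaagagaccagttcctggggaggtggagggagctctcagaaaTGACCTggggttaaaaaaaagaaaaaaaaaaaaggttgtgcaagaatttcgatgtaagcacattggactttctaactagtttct
Oat: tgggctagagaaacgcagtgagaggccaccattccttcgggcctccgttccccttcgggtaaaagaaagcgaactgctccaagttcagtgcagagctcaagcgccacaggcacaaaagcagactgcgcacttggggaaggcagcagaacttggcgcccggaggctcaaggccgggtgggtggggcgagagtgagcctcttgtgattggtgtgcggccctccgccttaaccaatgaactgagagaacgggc
Gpt2: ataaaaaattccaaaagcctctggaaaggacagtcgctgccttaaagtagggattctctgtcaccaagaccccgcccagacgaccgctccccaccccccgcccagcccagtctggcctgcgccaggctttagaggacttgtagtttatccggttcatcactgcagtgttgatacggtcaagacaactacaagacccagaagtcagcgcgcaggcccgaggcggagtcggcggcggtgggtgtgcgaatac

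A further list of 110 genes of the same pathways was set beside the members, and 97 of them had enough counts to be tested. In the edgeR test 1 of the 97 passed the threshold, lower in A1cf KO, against a background of 0.0473% of all genes. An unadjusted p under 0.05 was found for 13 (13.4%, against 10.4% of all genes), 5 higher and 8 lower. Their median log2 fold change was -0.021. The DESeq2 test called 2 of the 97, against a background of 1.01% of genes. They were the gene called by edgeR and Fpgs, which adds glutamate tails to folates and so keeps them in the cell. Fpgs ran from 93.8 to 101 CPM in WT and from 82.2 to 90.9 CPM in A1cf KO, without overlap (0.52% of all genes in that direction). Its log2 fold change was -0.18 (SE 0.043, adjusted p = 0.18 by edgeR and 0.0075 by DESeq2). Uroc1, an enzyme of histidine breakdown, ran from 52.8 to 108 CPM in WT and from 34.6 to 57.9 CPM in A1cf KO, with a log2 fold change of -0.63 (SE 0.19, edgeR adjusted p = 0.3). Odc1, which turns ornithine into putrescine, ran from 309 to 556 CPM in WT and from 384 to 584 CPM in A1cf KO, with a log2 fold change of 0.34 (SE 0.14, edgeR adjusted p = 0.42).

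The 13 genes of this list with too few counts include enzymes known as liver enzymes of the same routes. Cps1, which feeds ammonia into the urea cycle, had 0 counts in every WT library and at most 10 in an A1cf KO library. Arg1, Otc, Mat1a, Agxt and Tat, the cytosolic arginase, ornithine transcarbamylase, the adult liver form of S-adenosylmethionine synthase, the glyoxylate aminotransferase and tyrosine aminotransferase, had at most 8, 4, 6, 4 and 21 counts in any library. Their counterparts among the members, Arg2 and Mat2a, were present in all 12 libraries.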

How the data were processed

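The authors deposited raw counts of reads per gene for 12 libraries, 6 WT and 6 A1cf KO. Per the file headers, reads over exons of the GENCODE M8 annotation were counted under each gene name by featureCounts 1.5.0-p2, with no option for strand, pairs or duplicates. The submitters' processing notes name STAR, DESeq2 and mm10 without a version. Per the labels' protocols, RNA of flash-frozen kidneys was isolated with a miRNeasy kit and made into TruSeq libraries. Reads in exons shared by genes on opposite strands could not be assigned by strand, which touches 15 members, and 4 of these share over 10% of their counted length that way.

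The whole table was fitted in edgeR 4.0.16 under R 4.3.3 (filterByExpr by genotype, TMM, quasi-likelihood F test, no covariate). Benjamini-Hochberg adjustment ran over the 16910 genes tested, and a gene is called at an adjusted p under 0.05. Total counts per library were compared between genotypes (exact two-sided permutation p = 0.75). Groups come from the sample titles, and the series calls its samples biological replicates. Alternatives were DESeq2 1.42.0, limma-voom (limma 3.58.1), other scalings and filters, a robust fit, the animal number series and leaving out each library. The main edgeR fit between genotypes was tested on simulated data with known changes, and the alternatives were not.

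The members, the lists and the motifs were chosen with earlier results of these data known. Values are given for every member past the threshold, the 10 smallest p, members without overlap and the 2 highest per kilobase in each arm, and the further pathway genes given with values (Fpgs, Uroc1 and Odc1) are among the 2 smallest p of their arm; the others of that rank are not all named. Gamt, Arg2, Bhmt, genes below the filter and some other members were named after their values were seen. 1 gene of the further list is not reported here.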

Additional observations from a re-analysis of the deposited data

Results flagged for a closer look

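In the screen for single libraries far from the others of their genotype, 6 of 104 groups (52 members in 2 genotypes) held such a library, and chance alone marks about 1 in 20 groups. WT 776 stood apart in 3 of them. Its level of Aldh18a1, which starts proline synthesis from glutamate, was 2.73 CPM against 1.94 to 2.11 CPM in the other WT libraries. Hibch, a hydrolase of valine breakdown, was at 57.9 CPM in WT 776 against 72.9 to 81.4 CPM, and Aass, the first enzyme of lysine breakdown, at 444 CPM against 530 to 572 CPM. A1cf KO 584 stood apart in 2 groups, with Ahcy at 206 CPM against 297 to 318 CPM in the other A1cf KO libraries and Hpd at 24.3 CPM against 52.9 to 58.4 CPM. WT 590 stood apart for Bhmt, at 6.03 CPM against 1.41 to 3.06 CPM in the other WT libraries.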

How the results depend on the processing

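No paired analysis was run, because the sample titles give a genotype and an animal number but no pairs of animals. Across 21 alternatives, the number of members called stayed at 0 except for 4 by the DESeq2 Wald test and 1 (Gpt2) without WT 590, so that it ran from 0 to 1 with each library left out in turn. Members at an unadjusted p under 0.05 ranged from 7 to 13 with a library left out, and were 8 within animals 573 to 602 (7.5% of all genes). The median log2 fold change of the members lay between -0.076 (animals 573 to 602) and 0.07, so its sign depended on the animals used. The further pathway genes called were 2 by DESeq2 and 1 in every other alternative. Members called between the animal series were 1 among WT animals only and 3 under the other alternatives. The log2 fold change of A1cf lay between -3.88 and -3.64. The 11 named members kept their direction in all alternatives, and their adjusted p-values ranged from 0.0031 (Dbt by DESeq2) to 0.87 (Mut within animals 573 to 602). Depth limits Pycr1, at 15 to 39 counts per library, whereas the largest standard errors of the genotype difference were those of Gatm (0.38) and Bcat1 (0.36).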
